A study of Rattus norvegicus with 17 samples.

Results

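Septins are GTP-binding proteins that assemble into hetero-oligomers and filaments beneath membranes, where they act as scaffolds and diffusion barriers. Members fall into subgroups, and a filament joins members of several subgroups, with Septin7 as the shared core subunit. In neurons, Septin5 and Septin8 have been placed at presynaptic terminals, Septin7 at the base of dendritic spines and branches, and several septins form filaments at the inner face of central myelin. The 9 genes considered here were Septin2, Septin3, Septin4, Septin5, Septin6, Septin7, Septin8, Septin9 and Septin11. They were taken as a family because the Septin8 signal was lower at 28 months than at 12 months, so that the contrast between aged and adult rats is described below without a test. No threshold was applied to the members. By symbol and Entrez identifier, 7 of 22226 probes on the array belonged to 5 of the 9 genes. Septin2, Septin3, Septin4 and Septin6 were matched to no probe in the annotation used here and are not analysed.

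Hippocampal synaptosomes, a fraction of pinched-off nerve terminals with adhering membrane, were prepared from male F1 hybrids of Fischer 344 and Brown Norway rats, and total RNA was hybridized to Illumina RatRef-12 bead arrays, with 1 array per rat. The groups were cognitively impaired rats of 28 months (aged impaired, n = 7), cognitively intact rats of 28 months (aged intact, n = 5) and rats of 12 months (adult, n = 5), with the aged rats assigned by their Morris water maze performance. All rats swam in the maze before tissue was taken, and whole hippocampi were used. Impairment was therefore a behavioural assignment within aged rats and not a treatment.

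The 12 aged arrays lay on 1 slide and the 5 adult arrays on another, so in every difference from adults age cannot be told apart from slide. Both aged groups shared their slide. Mean signals ranged from 386 to 617 on the aged impaired arrays, 313 to 544 on the aged intact arrays and 342 to 387 on the adult arrays. Adult replicate 4 resembled the rest least, with a mean correlation of 0.976 against at least 0.986 for each other array, and had the fewest detected probes, 10440. Leaving out this array moved some aged minus adult values by over 1.5 times. For Septin7, Septin11 and the list medians, such values are given with and without it. So are the relations of Septin5, Septin7, Septin8 and Septin11 with the presynaptic terminal list. Intensities are log2 values after background correction and quantile normalization. A probe was tested when it was detected, at a detection p-value below 0.05, on every array of at least 1 group. Of 10457 tested probes, 6 belonged to the 5 septin genes. Differences on the log2 scale come from a limma fit of all 17 arrays, with p-values adjusted by the Benjamini-Hochberg method over all tested probes. Levels of different probes are not set against each other, because each probe hybridizes with its own efficiency.

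Cell type markers were counted among the tested genes. No other fraction was on the arrays, so these counts do not show how far terminals were enriched. Of 18 presynaptic terminal genes, 15 had a probe and 13 were tested, among them Syn1 (synapsin I), Syn2 (synapsin II), Amph (amphiphysin) and Slc17a7 (the vesicular glutamate transporter of cortical and hippocampal excitatory terminals). Markers of other cells were also detected, with 21 of 28 myelin and oligodendrocyte genes tested, 13 of 18 astrocyte genes and 17 of 19 microglia and macrophage genes. Of 12 endothelium and mural cell genes, 7 had a probe and 2 were tested. The RNA was thus not that of terminals alone, and in such bulk material fewer cells or terminals of a type and less RNA per cell cannot be told apart.

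Promoter sequence is shown for Septin8, the gene by which the family was taken, and for Septin7 and Septin11, the pair of members with the highest correlation between arrays. The sequences are RefSeq windows of build GRCr8, read 5′ to 3′ on the strand of the gene, and the first 240 bases are given, which end before the annotated start. Capitals mark the GC box GGGCGG, a hexamer bound by Sp-family factors, which was searched on both strands with overlapping matches counted.
Septin8: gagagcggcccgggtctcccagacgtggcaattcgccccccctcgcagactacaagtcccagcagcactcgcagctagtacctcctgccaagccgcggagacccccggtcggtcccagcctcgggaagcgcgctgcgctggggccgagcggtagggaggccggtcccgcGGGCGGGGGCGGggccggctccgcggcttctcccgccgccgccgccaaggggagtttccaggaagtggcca
Septin7: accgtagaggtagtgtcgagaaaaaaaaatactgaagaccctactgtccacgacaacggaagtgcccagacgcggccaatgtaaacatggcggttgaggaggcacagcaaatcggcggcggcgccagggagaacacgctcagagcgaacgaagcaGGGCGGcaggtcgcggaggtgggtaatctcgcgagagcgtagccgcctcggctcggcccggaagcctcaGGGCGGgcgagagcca
Septin11: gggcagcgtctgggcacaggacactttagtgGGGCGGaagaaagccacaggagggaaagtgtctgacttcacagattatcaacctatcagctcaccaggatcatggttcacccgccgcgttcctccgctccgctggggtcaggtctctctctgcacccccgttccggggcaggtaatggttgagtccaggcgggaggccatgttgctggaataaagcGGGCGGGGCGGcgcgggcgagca

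The Septin8 window lay at chr10:38185207-38185446 on the plus strand, the Septin7 window at chr8:31995348-31995587 on the plus strand, and the Septin11 window at chr14:15275211-15275450 on the minus strand. The hexamer occurred 2 times in the Septin8 window, as adjoining copies. It occurred 2 times in the Septin7 window and 3 times in the Septin11 window, where 2 of the copies share a base. Of 33469 rat promoter windows of the same length, 29.5% held at least 1 copy. GC content was 74.2% for Septin8, 62.1% for Septin7 and 62.1% for Septin11, against a median of 51.2% over all windows. The Septin8 window held 28 CG dinucleotides, the Septin7 window 26 and the Septin11 window 16, against a median of 5. All 3 were thus richer in CG than the median rat promoter. The letters TATAAA were in none of the 3 windows and in 12.6% of all windows. The letters CCAAT were found 1 time, in the Septin7 window, and in 33.1% of all windows, and the cyclic AMP response element TGACGTCA was in none of the 3 and in 1.49% of all. A match of letters is a description of the sequence and not a binding site.

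Septin8 (Entrez 303135, probe ILMN_69703) belongs to the Septin6 subgroup and binds synaptobrevin on synaptic vesicles. Its log2 intensity on the 7 aged impaired arrays ran from 11.34 to 11.48 with a median of 11.42. On the aged intact arrays it was 11.36, 11.33, 11.44, 11.37 and 11.23, and on the adult arrays it was 11.60, 11.48, 11.72, 11.66 and 11.62. All 12 aged arrays were below all 5 adult arrays, a pattern shared by 0.325% of tested probes. The narrowest gap was small, between aged impaired replicate 2 at 11.476 and adult replicate 2, the lowest adult array, at 11.482. The order of the group means was aged intact lowest, aged impaired next and adult highest, and the aged groups overlapped.

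The mean Septin8 level was 11.41 ± 0.051 (SD, n = 7) in aged impaired rats, 11.35 ± 0.075 (n = 5) in aged intact rats and 11.62 ± 0.088 (n = 5) in adult rats. Averaged over both aged groups, aged minus adult was -0.24 on the log2 scale (SE 0.037, 95% interval -0.32 to -0.16), which is 0.848 of the adult intensity. Among tested probes, 2.69% had a lower difference. Aged impaired minus adult was -0.21 (95% interval -0.29 to -0.12), with all 7 arrays below the adult range (1.08% of probes), and aged intact minus adult was -0.27 (95% interval -0.36 to -0.18), with all 5 arrays below it (1.83% of probes). These comparisons share the adult arrays and the slide, and the gene was chosen on them, so they are given as a description. Of the 5 septins, 1 had an adjusted p below 0.05 in aged against adult rats, where 1.2% of all tested probes did, 0.708% in the downward direction. In each aged group taken alone the count was also 1, with 0.363% of probes for aged impaired and 0.306% for aged intact rats. In all of them the gene counted was Septin8, so these counts restate how the family was taken and nothing is read from them. All 3 counts were 0 with unnormalized signals, robust background estimates, median scaling or average normalization. They were also 0 with the replicate number, a running index within each group, as a block. The aged impaired count was 1 in 9 of 17 fits that left out an array.

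The difference in Septin8 was a difference relative to the rest of the array. The deposited signal, before any normalization, averaged 3110 ± 712 (SD) on aged impaired arrays, 2730 ± 670 on aged intact arrays and 2870 ± 257 on adult arrays, and the groups overlapped. Divided by the mean signal of its own array, Septin8 ran from 6.32 to 7.38 on aged impaired arrays, 5.99 to 6.92 on aged intact arrays and 7.08 to 8.29 on adult arrays. On that scale aged intact arrays stayed below all adult arrays, while aged impaired replicate 7 was above adult replicate 2. Without normalization, aged minus adult for Septin8 was -0.005, while the median over all probes was 0.216, so Septin8 lay 0.221 below the median. Under every normalization tried the Septin8 difference was negative, between -0.253 with median scaling and -0.209 with array weights.

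**Figure D1:**
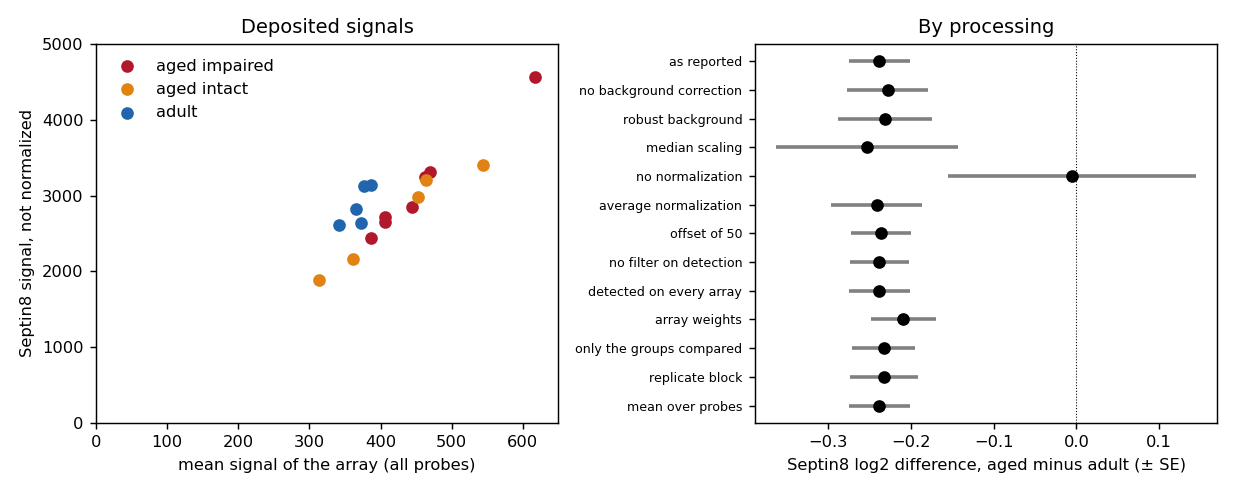
Left, deposited Septin8 signal (y axis) against the mean signal of the array over all probes (x axis), both in scanner units, with 1 point per array for aged impaired, aged intact and adult rats. Right, Septin8 log2 difference, aged minus adult, with its SE under each processing setting. At a given array mean most adult points lie above the aged points, and the difference is near 0 on unnormalized signals alone.

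Whether Septin8 differed with cognitive status was asked within the aged slide, and this contrast took no part in choosing the family. Aged impaired minus aged intact was 0.07 (SE 0.040, 95% interval -0.02 to 0.15, unadjusted p = 0.12, adjusted p = 1 by limma). The interval holds differences from about none up to 0.15, and 2 of 7 aged impaired arrays were above the highest aged intact array.

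Septin5 (Entrez 116728, probe ILMN_59262), of the Septin2 subgroup, binds syntaxin and has been linked to the restraint of vesicle release. Its log2 intensity on the aged impaired arrays ran from 10.49 to 10.79 with a median of 10.59. On the aged intact arrays it was 10.68, 10.44, 10.55, 10.48 and 10.44, and on the adult arrays it was 10.42, 10.83, 10.57, 10.71 and 10.71. Adult arrays spanned a wider range than either aged group and enclosed both. Aged impaired minus aged intact was 0.11 (SE 0.068, 95% interval -0.04 to 0.25, unadjusted p = 0.15, adjusted p = 1 by limma). On 4 of 5 aged intact arrays the level was below the aged impaired median, but the groups overlapped. Aged minus adult was -0.08 (SE 0.062, 95% interval -0.21 to 0.06). It ran from -0.13 without adult replicate 1 to -0.03 without adult replicate 2.

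Septin7 (Entrez 64551, probe ILMN_56430) is the core subunit on which other septins depend for filament assembly. Its log2 intensity on the aged impaired arrays ran from 10.11 to 10.98 with a median of 10.82. On the aged intact arrays it was 10.51, 10.95, 10.79, 10.79 and 10.97, and on the adult arrays it was 10.82, 10.80, 10.96, 10.16 and 10.92. A single low array in each group, aged impaired replicate 6, aged intact replicate 1 and adult replicate 4, carried most of its spread, and the other 14 arrays lay between 10.78 and 10.98. Aged impaired minus aged intact was -0.06 (SE 0.15, 95% interval -0.38 to 0.27, unadjusted p = 0.72, adjusted p = 1 by limma). This difference turned to 0.05 without aged impaired replicate 6, so its sign rests on that array. Aged minus adult was 0.04 (SE 0.14, 95% interval -0.26 to 0.34) and -0.10 without adult replicate 4.

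Septin9 (Entrez 83788), of the Septin3 subgroup, binds microtubules. Probe ILMN_52171 ran from 9.21 to 9.83 on the aged impaired arrays with a median of 9.38. On the aged intact arrays it was 9.49, 9.02, 9.39, 9.65 and 9.39, and on the adult arrays it was 9.40, 9.14, 9.17, 9.48 and 9.22. The groups overlapped, with 4 of 12 aged arrays above the highest adult array and 1 below the lowest. Aged impaired minus aged intact was 0.04 (SE 0.12, 95% interval -0.20 to 0.29, unadjusted p = 0.71, adjusted p = 1 by limma), and it turned to -0.05 without aged intact replicate 2. Aged minus adult was 0.13 (SE 0.11, 95% interval -0.09 to 0.36). The second Septin9 probe, ILMN_68343, was detected on 0 of 17 arrays and was not tested.

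Septin11 (Entrez 305227), of the Septin6 subgroup, has been described in dendritic branches and spines. Probe ILMN_161779 was dim but detected on all 17 arrays, running from 7.00 to 7.08 on the aged impaired arrays with a median of 7.03. On the aged intact arrays it was 7.05, 7.08, 7.05, 7.05 and 7.05, and on the adult arrays it was 7.08, 7.07, 7.08, 7.02 and 7.06. The groups overlapped. Aged impaired minus aged intact was -0.02 (SE 0.016, 95% interval -0.05 to 0.02, unadjusted p = 0.31, adjusted p = 1 by limma), and aged minus adult was -0.01 (SE 0.015, 95% interval -0.04 to 0.02) and -0.02 without adult replicate 4. These spans are narrow in part by construction, since the background correction compresses dim probes. With robust background estimates the differences over all arrays were -0.10 (SE 0.085) and -0.06 (SE 0.078). The second Septin11 probe, ILMN_53950, was detected on 6 of 7 aged impaired, 3 of 5 aged intact and 5 of 5 adult arrays. Its aged impaired minus aged intact difference was 0.01 (SE 0.011, adjusted p = 1 by limma), opposite in sign to that of the brighter probe.

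**Figure D2:**
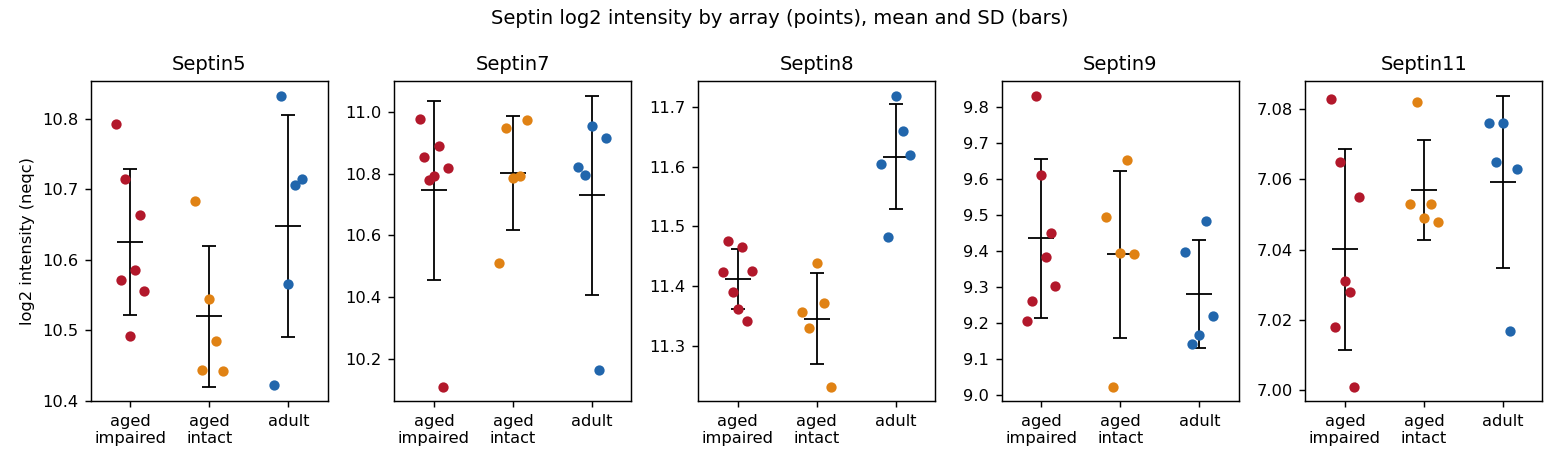
Log2 intensity (y axis, a separate scale for each gene) of the 5 measured septins on each array, in aged impaired (n = 7), aged intact (n = 5) and adult (n = 5) rats. Points are arrays and bars are the mean and SD. Among these genes the aged and adult points separate for Septin8 alone, where aged impaired replicate 2 lies just below adult replicate 2. Septin7 shows a low array in each group.

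Between aged impaired and aged intact rats, 0 of the 5 septin genes and 0 of 10457 probes passed an adjusted p of 0.05 by limma (0% called). At an unadjusted p below 0.05 the counts were 0 septins and 346 probes, or 3.31% of those tested. The methods' test, which adds a fold threshold of 1.2, called 0 septins and 20 probes before adjustment and 0 probes after it. The 95% intervals held differences of up to 0.15 in size for Septin8, 0.25 for Septin5, 0.29 for Septin9 and 0.38 for Septin7. Of the 5 differences 3 were above 0, and their median was 0.04.

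**Figure D3:**
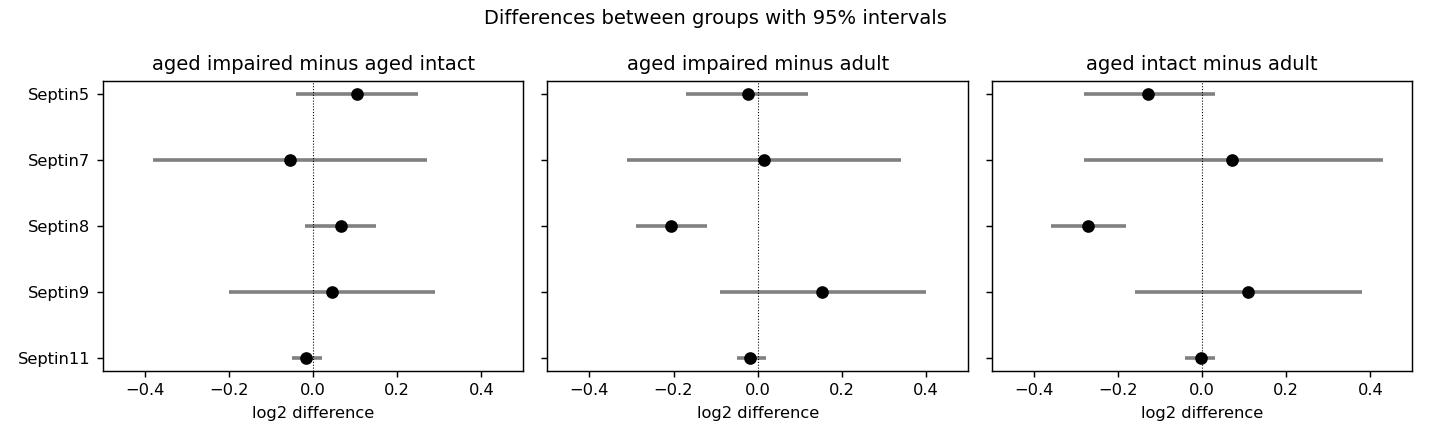
Log2 differences (x axis) with 95% intervals for the 5 measured septins in aged impaired minus aged intact, aged impaired minus adult and aged intact minus adult rats. Points are estimates from 1 fit of all 17 arrays. Septin8 lies below 0 in both comparisons with adults, on which the gene was chosen, so those intervals are a description and no test. Between the aged groups its interval includes 0.

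Other septins on the array were dim. Septin1 and Septin10 were tested and passed in no contrast, with aged minus adult differences of -0.01 (SE 0.013) for Septin1 and -0.01 (SE 0.019) for Septin10. Their median was -0.011, and -0.004 without adult replicate 4. The background correction compresses such dim probes, as stated for Septin11. Septin12 was detected on 1 of 17 arrays and was not tested, and Septin14 was matched to no probe here.

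Genes that assemble or regulate septins, such as the Cdc42 effector (Borg) proteins that bind septin filaments, anillin, and the kinases that phosphorylate septins, formed a list of 20, of which 17 had a probe and 14 were tested. None passed by limma in any contrast, and at an unadjusted p below 0.05 the count was 0 of 14 between the aged groups, against 3.31% of all probes, and 1 of 14 in aged against adult rats, against 17.2%. The median difference was 0.001 for aged impaired minus aged intact and -0.009 for aged minus adult, and the medians of all tested probes were 0 and -0.006. Without adult replicate 4 the aged minus adult median was 0.001. The smallest p between the aged groups was that of Rhoa, the small GTPase that drives actomyosin contraction, at -0.19 (SE 0.17, adjusted p = 1). Cdc42ep2, a Borg protein, was at -0.05 (SE 0.058, adjusted p = 1).

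The presynaptic partners, which comprise the SNARE proteins bound by Septin5 and Septin8, the exocyst subunits that tether vesicles and the SNARE regulators, formed a list of 15, of which 13 were tested. None passed by limma in any contrast, and 1 had an unadjusted p below 0.05 between the aged groups, against 3.31% of all probes. The median difference was -0.041 for aged impaired minus aged intact and -0.084 for aged minus adult, with 4 of 13 above 0 between aged and adult rats, where 55.9% of all probes were below 0. Single arrays moved these medians. Leaving out an array, aged minus adult ran from -0.095 to -0.033, the latter without adult replicate 4. Aged impaired minus aged intact changed sign, to 0.006, without aged intact replicate 4. The smallest p between the aged groups was that of Exoc3, an exocyst subunit, at -0.17 (SE 0.065, unadjusted p = 0.016, adjusted p = 1). Snap25, a SNARE of the plasma membrane, was at -0.09 (SE 0.10, adjusted p = 1).

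Values of marker lists of other cells are given beside these. Between the aged groups, 19 of 21 myelin and oligodendrocyte genes had a difference below 0, against 50% of all tested probes. The median was -0.21, in a range of -0.43 to 0.06. Of the 21 genes, 8 had an unadjusted p below 0.05 by limma, against 3.31% of all probes, and 0 passed adjustment. Genes of a list were read on the same arrays, so these are not counts of independent observations. In this list Cldn11, a tight junction protein of myelin, was at -0.43 (SE 0.16, adjusted p = 1) and Mog, a myelin surface glycoprotein, at -0.22 (SE 0.084, adjusted p = 1). The mean of the list ran from 9.86 to 10.22 in aged impaired rats, 10.12 to 10.34 in aged intact rats and 9.99 to 10.20 in adult rats. In aged against adult rats, where age cannot be told apart from slide, all 17 microglia and macrophage genes had a difference above 0. Of all tested probes 55.9% were below 0. The median of the list was 0.288 (0.416 without adult replicate 4). Of its genes 2 passed, where 1.2% of all tested probes did. Cd53, a leukocyte tetraspanin, was higher by 0.56 (SE 0.11, adjusted p = 0.031 by limma) and P2ry12, a purine receptor of microglia, by 0.55 (SE 0.11, adjusted p = 0.031). The mean of that list ran from 8.72 to 9.94 in aged impaired rats, 8.80 to 8.96 in aged intact rats and 8.55 to 8.66 in adult rats, so that it separated the same arrays as Septin8. The upper end was a single array, aged impaired replicate 4, and the other 6 aged impaired arrays reached at most 8.93. The part of the microglia and macrophage list in the septin values was not tested.

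Whether septins varied with myelin or terminal RNA from one preparation to the next was asked across the 17 arrays after group means were removed, for 5 septins and 2 lists. Of 10 relations, 3 passed an adjusted p of 0.05 in 100000 permutations within groups, all two-sided. Septin9 was lower where the myelin list was higher (Pearson r = -0.73, permutation p = 0.0019, adjusted p = 0.019, and Spearman rho = -0.71, permutation p = 0.0045, adjusted p = 0.045). Without the 2 arrays farthest from the median of the list, r was -0.77. Within the 12 aged arrays, which share a slide, r was -0.83 (permutation p = 7e-04, adjusted p = 0.007) and rho was -0.83 (adjusted p = 0.022). Leaving out aged impaired replicate 1 gave r = -0.70 with an adjusted permutation p of 0.054. The direction depends on scaling, since r was 0.51 with median scaling and 0.67 on unnormalized signals, where 9 and 10 of the 10 relations passed.

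Septin11 was higher where the presynaptic terminal list was higher (r = 0.70, permutation p = 0.0056, adjusted p = 0.028, and rho = 0.64, permutation p = 0.0095, adjusted p = 0.048), with r = 0.71 without the 2 farthest arrays. Septin7 followed the same list by Pearson correlation (r = 0.70, permutation p = 0.012, adjusted p = 0.039), but not by rank (rho = 0.38, permutation p = 0.14, adjusted p = 0.29), with r = 0.63 without the 2 farthest arrays. Both relations rest in part on adult replicate 4, which had low values on both axes. Without it r was 0.55 for Septin11 (adjusted permutation p = 0.29) and 0.48 for Septin7 (adjusted permutation p = 0.38). Other arrays mattered too. Without aged impaired replicate 6 the adjusted permutation p was 0.1 for Septin11 and 0.27 for Septin7. Of 17 fits that each left out an array, Septin11 passed in 14 and Septin7 in 10. Within the aged slide r was 0.61 for Septin11 (adjusted permutation p = 0.21) and 0.50 for Septin7 (adjusted permutation p = 0.30), so neither held there. For Septin8, r was 0.34 with myelin (adjusted permutation p = 0.37) and -0.03 with terminals (adjusted permutation p = 0.92). Without adult replicate 4, the r of Septin8 with terminals turned to 0.13. For Septin5, r was -0.03 with myelin and 0.12 with terminals, each at an adjusted permutation p of 0.92. Without adult replicate 4, the r of Septin5 with terminals was 0.3.

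**Figure D4:**
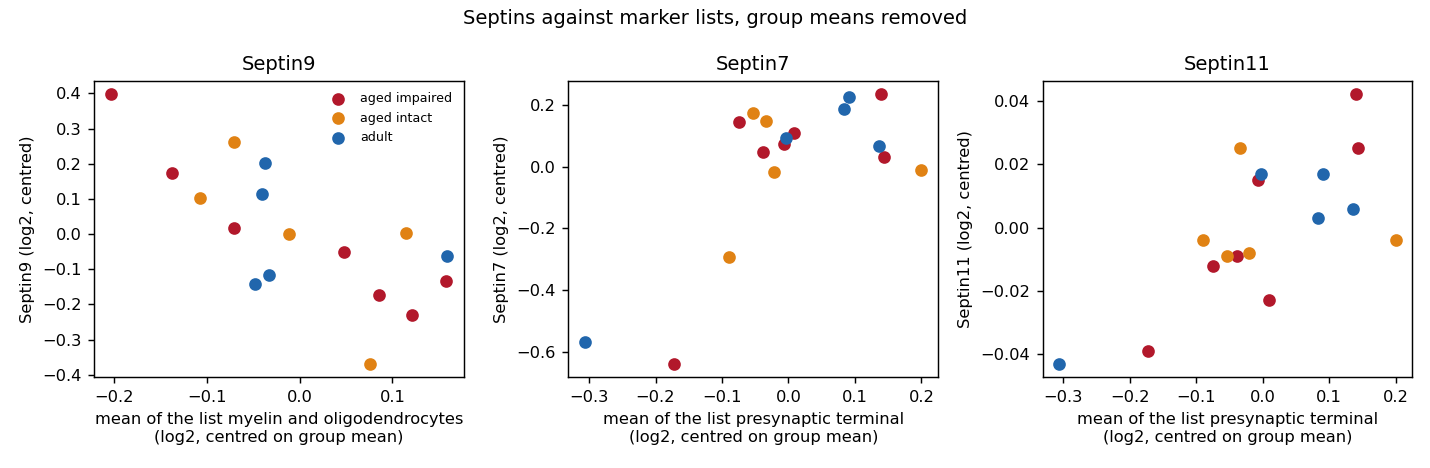
Log2 intensity of Septin9, Septin7 and Septin11 (y axes) against the mean log2 intensity of a marker list (x axes), myelin and oligodendrocytes for Septin9 and presynaptic terminal for Septin7 and Septin11, with group means removed. Each point is an array of an aged impaired, aged intact or adult rat. Septin9 declines across the myelin axis (r = -0.73), and the leftmost point in the terminal panels is adult replicate 4.

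Of 10 pairs, described over the 17 group-centred arrays, Septin7 with Septin11 had the highest r, 0.71, and Septin7 with Septin9 the lowest, -0.40. Septin8 lay between -0.15 (with Septin5) and 0.083 (with Septin7). Both Septin7 and Septin11 were lowest on adult replicate 4 among the adult arrays and on aged impaired replicate 6 among the aged impaired arrays. Their r was 0.58 without the adult array and 0.25 without both.

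The named genes outside the family whose group-centred levels were most like each septin, out of 7286 genes over 17 arrays, are given as a description. For Septin8 they were Mdh1, the cytosolic malate dehydrogenase (r = 0.729), Col18a1, a basement membrane collagen (0.718), Dio2, a deiodinase that activates thyroid hormone (0.706), Palmd (0.680) and Rps6kb2, a kinase of a ribosomal protein (0.669). For Septin5 they were Atg9a, an autophagy membrane protein (0.803), Asphd2 (0.766) and Caly (0.756). For Septin7 they were Oxr1 (0.937), Ctnnb1, which encodes beta-catenin (0.930), and Zmpste24, a protease that matures lamin A (0.915). For Septin9 they were Sparc, a secreted matrix protein (0.899), Eif4a1, a helicase of translation initiation (0.893), and Crat, carnitine acetyltransferase (0.861). For Septin11 they were Bcan, a proteoglycan of the perineuronal matrix (0.882), Btbd3 (0.832) and Pgm3, an enzyme of amino sugar synthesis (0.831). The highest r was lower for Septin8 than for any other septin. As the highest of 7286 values over 17 arrays, such r can be high by chance, which was not tested. Adult replicate 4 and aged impaired replicate 6 were the lowest arrays of both Septin7 and Septin11 in their groups. Whether the order of these r holds without those arrays was not tested. The median r of a septin with all genes was between -0.10 and 0.029.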

How the data were processed

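Synaptosomal RNA of 17 rats was measured on bead arrays. The deposited table holds a non-normalized bead intensity (signal) and a detection p-value per probe, made by the authors in GenomeStudio 1.0.6 (per the labels). The detection p-value of the deposited table marks a probe above background below 0.05. Signals, 28.9 at the lowest, were corrected by neqc (limma 3.58.1, R 4.3.3, offset 16, background from the detection p-values), quantile normalized and taken to log2. Probes detected on every array of at least 1 group were fitted with lmFit and eBayes over 3 groups and adjusted by the Benjamini-Hochberg method. Symbols were updated through Entrez identifiers, and 9034 probes had no symbol. The deposited value table in series matrix form held the same signals. Arrays are taken as biological replicates, 1 rat each, and their number limits precision. The members, lists and tests were chosen with earlier results of these data known. Every septin probe is named, a gene with several tested probes is represented by the brightest, and list genes are named where they passed or ranked among the first 4 by p in aged impaired against aged intact rats. Replicate numbers were given here in sample order within each group. In the adult and aged intact groups they are not the numbers of the sample titles. They did not pair the arrays. The fit was tested on simulated data. Alternatives are given in the closing section.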

Additional observations from a re-analysis of the deposited data

Results flagged for a closer look

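In 4 of the 18 sets of septin values by probe and group, 1 array stood apart from the rest of its group by Dixon's criterion, which chance alone meets in about 1 in 20 groups. For Septin7, aged impaired replicate 6 was lowest at 10.11 and adult replicate 4 was lowest at 10.16. For Septin11 (ILMN_161779), aged intact replicate 2 was highest at 7.08 and adult replicate 4 was lowest at 7.02.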

How the results depend on the processing

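In the comparisons with adults, the count of septin probes past the threshold restates the choice of Septin8. Leaving out each of 17 arrays it was 1 throughout in aged minus adult and in aged intact minus adult, and 0 to 1 in aged impaired minus adult, where it was 1 in 9 fits. The count was 0 in all 3 comparisons with adults under robust background, median scaling, unnormalized signals, average normalization and the replicate block. It was 0 for both aged groups taken alone without background correction or with only the groups compared, and 0 for aged impaired alone with no detection filter or array weights. For aged impaired against aged intact it was 0 in every setting run. Replicate numbers are a running index within each group and name no pairing or batch of the study. They gave correlations of -0.38 to 0.24 over 15 pairs, with 5 over 0.1, and 1 of 15 arrays correlated best with its own number. With the replicate block Septin8 was at -0.233 in aged minus adult rats, and the calls over all probes fell to 1, against 125.

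On unnormalized signals, where the median of all probes was 0.216 in aged minus adult, several differences from adults changed sign. Septin8 in aged impaired minus adult was 0.094, against -0.205. Septin5 was 0.142 in aged minus adult, 0.264 in aged impaired minus adult and 0.020 in aged intact minus adult. Septin11 was 0.206, 0.208 and 0.205 (ILMN_161779) and 0.183, 0.230 and 0.136 (ILMN_53950) in the same order. With array weights Septin7 was -0.031, -0.028 and -0.035, and with average normalization it was -0.002 in aged impaired minus adult. For aged impaired minus aged intact, Septin7 was 0.013 with median scaling, 0.083 unnormalized, 0.007 with array weights and 0.057 with the replicate block, and -0.129 to 0.05 leaving out an array. Septin9 ran from -0.047 to 0.11. Septin11 was 0.003 unnormalized (ILMN_161779) and -0.013 with average normalization (ILMN_53950).

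The r of Septin7 with Septin11 fell to 0.58 when adult replicate 4 was left out and to 0.25 when aged impaired replicate 6 was left out too, both chosen after seeing the data. Of the 10 relations 9 passed with median scaling, 10 unnormalized, 1 within the aged slide (chosen after seeing the data) and 0 to 3 leaving out an array, with 0 without aged impaired replicate 1 and 1 without aged impaired replicate 6 or adult replicate 4. With the myelin list, r under median scaling and unnormalized was 0.74 and 0.88 for Septin5 and 0.51 and 0.67 for Septin9. With the terminal list it was 0.68 and 0.79 for Septin8 and 0.60 and 0.70 for Septin9, and within the aged slide 0.25 and 0.29. Leaving out an array, r of Septin5 ran from -0.17 to 0.099 with myelin and from -0.014 to 0.30 with terminals, Septin8 from -0.15 to 0.18 and Septin9 from -0.29 to 0.20 with terminals.

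Over all probes, calls higher and lower in aged minus adult were 51 and 74 as reported, 85 and 26 with robust background, 81 and 59 with no background correction, 6 and 0 with median scaling, 78 and 0 unnormalized, 38 and 43 with average normalization, 29 and 20 with no filter and 112 and 103 with array weights. They were 20 and 12 in aged intact minus adult, 0 and 0 with median scaling or the block, 13 and 0 unnormalized, 12 and 6 with no filter and 54 and 26 with array weights. In aged impaired minus adult they were 27 and 11, 5 and 0 with median scaling, 364 and 0 unnormalized, 18 and 6 with no filter, 85 and 61 with array weights, 10 and 5 with only the groups compared and 0 and 0 with the block. The causes of these changes were not tested. The background SD used by neqc was 120 to 225, against 5.41 to 11.1 by a robust estimate, which limits what dim probes such as Septin11 can show.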
